A study of Homo sapiens with 12 samples.

Results

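The pro-apoptotic BCL2 family genes are BBC3, PMAIP1, BCL2L11, HRK, BID, BIK, BMF, and BAD, which encode BH3-only proteins, and BAX and BAK1, which encode the effectors. They were taken by symbol from the gene counts, where all 10 were found among 25369 genes and all 10 passed edgeR's filter on low counts, which kept 16625 genes. RNA came from U2OS, a human osteosarcoma line, in a Tet-On form that expresses a construct when doxycycline is given. The pTRE line carried the empty vector, and the other lines carried hemagglutinin-tagged E2F1 as the wild type (WT), with 1 arginine changed to lysine (R109K), or with a neighboring pair of arginines changed to lysine (KK). All 12 samples, 3 biological replicates of each of the 4 lines, had received doxycycline at 1 μg/ml for 24 hours, pTRE included, and the cultures kept their endogenous E2F1. The lines are stable transfectants kept in G418 and hygromycin B, and whether each is 1 clone is not given in the sources used here, so an effect of the construct cannot be told apart from one of the line.

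BH3-only proteins are short-lived or latent sensors of stress. They bind the groove of anti-apoptotic BCL2 family proteins, and some of them also bind BAX and BAK1 directly. Activated BAX and BAK1 assemble in the outer membrane of the mitochondrion and open it to cytochrome c, which starts caspase activation through APAF1. E2F1 is a transcription factor best known for the genes of S phase entry, and it is also known to act on genes of cell death. The lysine changes remove arginines that the study describes as sites of methylation, and the comparison of the lines asks how transcript levels depend on them.

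The samples held from 11500537 to 31040903 reads on genes. The shallowest was WT replicate 2, with 58.7% of its reads outside genes against 23.6% to 29.6% in the other samples. Its log2 values correlated with those of the other WT samples at 0.969 and 0.968, against 0.9924 between those samples. KK replicate 2 was slightly closer to R109K replicate 2, at 0.9877, than to KK replicates 1 and 3, at 0.985 and 0.9863. R109K replicate 2 was itself closer to R109K replicates 1 and 3, at 0.991 and 0.9908, against 0.9929 between those. WT, KK, and R109K replicate 2 are called below the 3 libraries that stand apart, though R109K replicate 2 lay with its own line by this measure. Values against pTRE that moved most without these 3 libraries are also given without them. Of the mesenchymal and osteoblastic markers, VIM, COL1A1, and SPARC were abundant, while COL1A2, SP7, and BGLAP lay below 1 CPM, a count scaled to library size, in each line on average. RUNX2 and ALPL lay between these in each line on average. The summed CPM of that list ran from 6128 to 7391 in pTRE and from 2171 to 2763 in WT. It ran from 2617 to 3240 in KK and from 3294 to 3383 in R109K. The epithelial markers KRT8 and KRT18 were also abundant, at means of 503 and 288 CPM in pTRE and 238 and 242 CPM in WT. The rest of that list was low, with EPCAM, CDH1, and KRT19 at means of 12.3, 1.38, and 0 CPM in pTRE. In WT these means were 11.4, 1.07, and 0.06 CPM. The summed CPM of the epithelial list ran from 744 to 919 in pTRE and from 365 to 585 in WT. The neuronal markers SNAP25 and SYT1 lay at means of 12.3 and 5.49 CPM in pTRE. E2F1 itself, whose counts do not tell construct from endogenous transcripts, lay at 89.2, 82.9, and 101 CPM in pTRE and was 19.9-fold higher in WT, 14.4-fold higher in KK, and 12.7-fold higher in R109K.

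HRK, BCL2L11, and BMF are the members whose levels moved in every E2F1 line. The 250 bases before a RefSeq start of each are therefore printed in GRCh38.p14, 5′ to 3′ on the gene's strand. BMF has 2 RefSeq promoter entries, of which only the first listed is printed. HRK lies on the minus strand of chromosome 12, with these bases at chr12:116881442-116881691. BCL2L11 is on the plus strand, at chr2:111120664-111120913, and BMF is on the minus strand, at chr15:40108880-40109129. In GRCh37, the build of the counts, the 3 genes span chr12:117293949-117319246, chr2:111876955-111926021, and chr15:40380091-40401093. Capitals mark GTAAACA, the core that FOXO factors bind, which was searched for on both strands after the BCL2L11 sequence had been seen.
HRK: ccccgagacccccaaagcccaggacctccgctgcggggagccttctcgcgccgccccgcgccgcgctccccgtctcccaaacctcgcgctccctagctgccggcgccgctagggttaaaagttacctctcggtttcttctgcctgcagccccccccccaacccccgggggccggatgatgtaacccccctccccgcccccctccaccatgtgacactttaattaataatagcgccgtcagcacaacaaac
BCL2L11: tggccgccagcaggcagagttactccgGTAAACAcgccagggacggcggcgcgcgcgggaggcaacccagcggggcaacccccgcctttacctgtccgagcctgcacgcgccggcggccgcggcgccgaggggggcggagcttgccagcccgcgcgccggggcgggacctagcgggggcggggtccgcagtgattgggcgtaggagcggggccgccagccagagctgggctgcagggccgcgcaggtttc
BMF: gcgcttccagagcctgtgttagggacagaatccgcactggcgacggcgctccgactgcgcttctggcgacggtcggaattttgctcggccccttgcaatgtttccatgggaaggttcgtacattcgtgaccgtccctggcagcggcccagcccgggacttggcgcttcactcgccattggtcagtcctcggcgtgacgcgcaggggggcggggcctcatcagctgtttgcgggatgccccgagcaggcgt

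All 3 stretches are rich in G and C, at 66.4%, 76.8%, and 65.2% for HRK, BCL2L11, and BMF, with 22, 34, and 26 CpG dinucleotides. The E2F consensus was searched as TTTCCCGC, TTTCGCGC, TTTGCCGC, and TTTGGCGC on both strands. It was found in 3.31% of 35116 RefSeq promoters that run from 250 bases before to 50 after a start, and in 0 of the 9 members that have such an entry. In windows from 900 bases before to 100 after the start of the GENCODE gene in GRCh37, it was found in 7.07% of 21245 genes and in 1 of the 10 members, BMF. The word begins at position -287 from the BMF start, in the minus-strand stretch chr15:40401343-40401410 of GRCh37. It is printed in capitals beside the start-proximal bases of E2F1, the minus strand at chr20:32274192-32274254, which hold the consensus on each strand, at positions -33 and -20.
BMF: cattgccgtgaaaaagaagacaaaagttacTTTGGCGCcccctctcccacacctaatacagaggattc
E2F1: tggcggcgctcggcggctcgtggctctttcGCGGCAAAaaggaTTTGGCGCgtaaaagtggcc

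The FOXO core was found in 3.42% of the RefSeq promoters, where BCL2L11 was the 1 member that held it, at position -223. It was found in 10.8% of the GRCh37 windows, among them those of 2 members, PMAIP1, at position -442, and BIK, at position -178. The GRCh37 window of BCL2L11 did not hold the core, so it leaves out the RefSeq position where the core lies. For BCL2L11 the RefSeq and GRCh37 windows thus differ in the stretch they cover, in the E2F search too. These matches describe letters in a window and were not tested as sites.

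HRK and BCL2L11 rose and BMF fell in each E2F1 line, and the other 7 members passed the thresholds in none. A gene was called when edgeR's quasi-likelihood test gave an adjusted p-value under 0.01 over all genes and the change was greater than 2-fold. By this rule 3 of the 10 members were called in WT against pTRE, where 11.8% of all genes were, with 2 that rose against 7.89% of genes and 1 that fell against 3.93%. In KK the count was again 3 of 10, against 10.9% of genes, with 2 that rose against 7.01% and 1 that fell against 3.9%. In R109K it was also 3 of 10, against 7.19% of genes, with 2 that rose against 4.64% and 1 that fell against 2.56%. The 3 comparisons share the pTRE samples. All 3 samples lay apart from those of pTRE for 6 members in WT, 4 in KK, and 3 in R109K, against 51.5%, 49.4%, and 47.2% of genes. Over all genes, 4.02% rose in all 3 lines and 1.79% fell in all 3. The median log2 fold change of the 10 members was -0.25 in WT, 0.08 in KK, and 0.08 in R109K, against 0.0022, -0.0091, and -0.00074 over all genes tested. Bulk counts cannot tell a change in every cell from a change in the share of cells that express a gene.

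**Figure D1:**
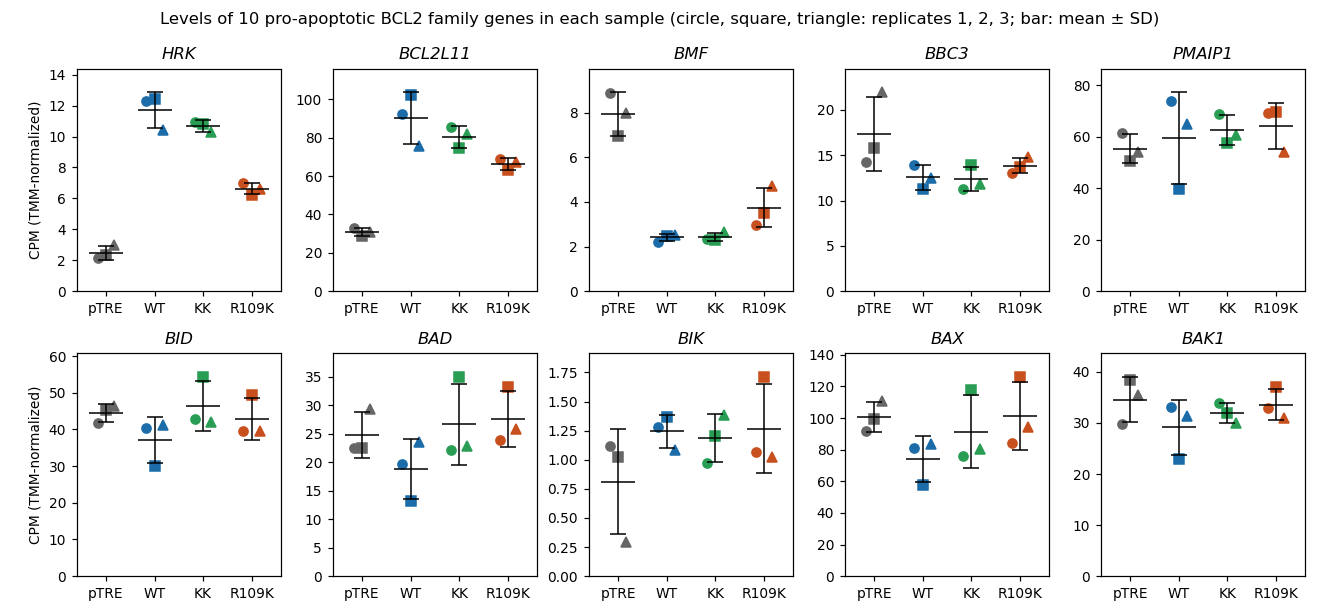
Level of each of the 10 pro-apoptotic BCL2 family genes in CPM on TMM library sizes (y axis, linear from 0), by line (x axis), with 1 symbol per sample and bars for the mean ± SD of 3 replicates. For HRK and BCL2L11 the 3 pTRE samples lie under those of every E2F1 line, for BMF they lie above, and for BAX, BAD, and BID replicate 2 of WT is low and replicate 2 of KK and R109K is high.

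HRK encodes harakiri, a BH3-only protein first known from neurons that binds BCL2 and BCL2L1. Its level was 2.15, 2.32, and 3.01 CPM in the pTRE samples and 12.3, 12.4, and 10.4 CPM in the WT samples. It was 10.97, 10.8, and 10.3 CPM in KK and 6.97, 6.25, and 6.63 CPM in R109K. The samples thus formed 3 separate ranges, with pTRE lowest, R109K in the middle, and WT and KK overlapping at the top. The log2 fold change against pTRE was 2.22 in WT (SE 0.16, edgeR adjusted p = 7.9e-08), which is 4.67-fold. It was 2.09 in KK (SE 0.159, adjusted p = 1.31e-07) and 1.40 in R109K (SE 0.16, adjusted p = 1.28e-05), which are 4.27-fold and 2.65-fold. These rest on 52 to 82 reads per pTRE sample and 155 to 345 per WT sample. Leaving out the 3 libraries that stand apart gave 2.18, 2.09, and 1.44.

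BCL2L11 encodes BIM, a BH3-only protein that binds every anti-apoptotic member and can activate BAX. Its level was 32.9, 28.8, and 31.0 CPM in pTRE, 92.5, 102, and 75.7 CPM in WT, 85.7, 74.4, and 81.7 CPM in KK, and 68.8, 62.9, and 67.5 CPM in R109K. No E2F1 sample overlapped pTRE, and the R109K samples lay below all those of WT and KK. The log2 fold change was 1.54 in WT (SE 0.123, edgeR adjusted p = 2.1e-07), 1.38 in KK (SE 0.122, adjusted p = 6.02e-07), and 1.10 in R109K (SE 0.121, adjusted p = 9.36e-06). As ratios these are 2.91-fold, 2.61-fold, and 2.15-fold. Without the 3 libraries that stand apart the log2 values were 1.45, 1.44, and 1.14. On the opposite strand MIR4435-2HG shares 727 of the exonic bases of BCL2L11, 10.8% of them, and the strand setting of the counting is not given in the sources used here. That gene, listed in the counts under its older symbol MIR4435-1HG, had log2 fold changes of -0.03, 0.12, and 0.14 in WT, KK, and R109K, with adjusted p-values of 0.863, 0.499, and 0.472.

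BMF encodes a BH3-only protein that is held at the cytoskeleton by a dynein light chain until it is released. Its level was 8.88, 6.95, and 7.97 CPM in pTRE, 2.21, 2.49, and 2.53 CPM in WT, 2.32, 2.30, and 2.64 CPM in KK, and 2.98, 3.52, and 4.71 CPM in R109K. All E2F1 samples lay below all pTRE samples, and all R109K samples lay above those of WT and KK. It fell by 1.72 on the log2 scale in WT (SE 0.201, edgeR adjusted p = 9.25e-06), by 1.71 in KK (SE 0.198, adjusted p = 8.83e-06), and by 1.09 in R109K (SE 0.191, adjusted p = 5.45e-04). The level in pTRE was 3.30 times that in WT, 3.27 times that in KK, and 2.13 times that in R109K. Without the 3 libraries that stand apart the log2 fold changes were -1.74, -1.68, and -1.06. The R109K call rested on a change near the 2-fold limit. Without R109K replicate 1 the log2 fold change was -0.95 (adjusted p = 0.00488), and BMF was then not called. An antisense gene, BMF-AS1, shares 461 exonic bases with BMF, 8.46% of them, and is not among the symbols counted.

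BBC3, which encodes PUMA, a BH3-only protein that binds every anti-apoptotic member, was lower on average in the E2F1 lines but was called in none. Its level was 14.3, 15.8, and 21.9 CPM in pTRE, with pTRE replicate 3 the highest of all samples, and between 11.2 and 14.8 CPM in the 9 E2F1 samples. The log2 fold change was -0.46 in WT (edgeR adjusted p = 0.0344), -0.49 in KK (adjusted p = 0.0254), and -0.32 in R109K (adjusted p = 0.147). Without pTRE replicate 3 these were -0.25, -0.29, and -0.12. PMAIP1 encodes NOXA, a BH3-only protein that binds MCL1. It ranged from 50.6 to 61.5 CPM in pTRE and from 39.7 to 73.9 CPM in WT, the lowest being WT replicate 2, and its log2 fold changes were 0.11, 0.17, and 0.21 in WT, KK, and R109K. Without WT replicate 2 the value in WT was 0.32.

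BID, which links death receptors to the mitochondrion after cleavage by caspase-8, had log2 fold changes of -0.25, 0.06, and -0.05. BAD, which is held by 14-3-3 proteins when phosphorylated, had -0.38, 0.10, and 0.16. Their WT values leaned on replicate 2, at 29.95 CPM for BID against 40.4 and 41.2, and at 13.2 CPM for BAD against 19.7 and 23.6. In KK the same replicate number was the highest instead, at 54.2 CPM for BID and 34.9 CPM for BAD. Without the 3 libraries that stand apart the log2 fold changes in WT, KK, and R109K were -0.12, -0.063, and -0.17 for BID and -0.20, -0.14, and 0.0031 for BAD. GPR137, on the opposite strand, shares 404 exonic bases with BAD, 23.7% of them. GPR137 lay at means of 56.1 CPM in pTRE and 67.3, 75.8, and 64.9 CPM in WT, KK, and R109K. Its log2 fold changes were 0.26, 0.43, and 0.21 (edgeR adjusted p = 0.116, 0.0158, and 0.254). Its part in the counts of BAD was not tested. BIK, which acts at the endoplasmic reticulum, was close to the limit of detection, with 8 to 47 reads per sample. Its log2 fold changes of 0.61, 0.55, and 0.65 had intervals of -0.27 to 1.49, -0.33 to 1.42, and -0.21 to 1.51, which hold a 2-fold rise. All 3 values rested on pTRE replicate 3, which had 8 reads against 27 in each of the other pTRE samples, and without it they were 0.20, 0.14, and 0.24.

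BAX and BAK1, the proteins that form the pore, were called in no comparison. BAX lay between 91.9 and 111 CPM in pTRE, between 57.6 and 83.3 CPM in WT, between 75.9 and 118 CPM in KK, and between 84.2 and 126 CPM in R109K. Its log2 fold change was -0.44 in WT (95% interval -0.85 to -0.03, edgeR adjusted p = 0.0791), -0.14 in KK, and 0.01 in R109K. Without the 3 libraries that stand apart the values were -0.29, -0.36, and -0.17, with adjusted p-values of 0.0302, 0.00824, and 0.198. BAK1 had log2 fold changes of -0.24, -0.12, and -0.04, with intervals from -0.54 to 0.06, from -0.42 to 0.19, and from -0.34 to 0.26. For BAK1 a 2-fold change thus lay outside the interval in each line. Its values were -0.10, -0.11, and -0.11 without the 3 libraries that stand apart.

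**Figure D2:**
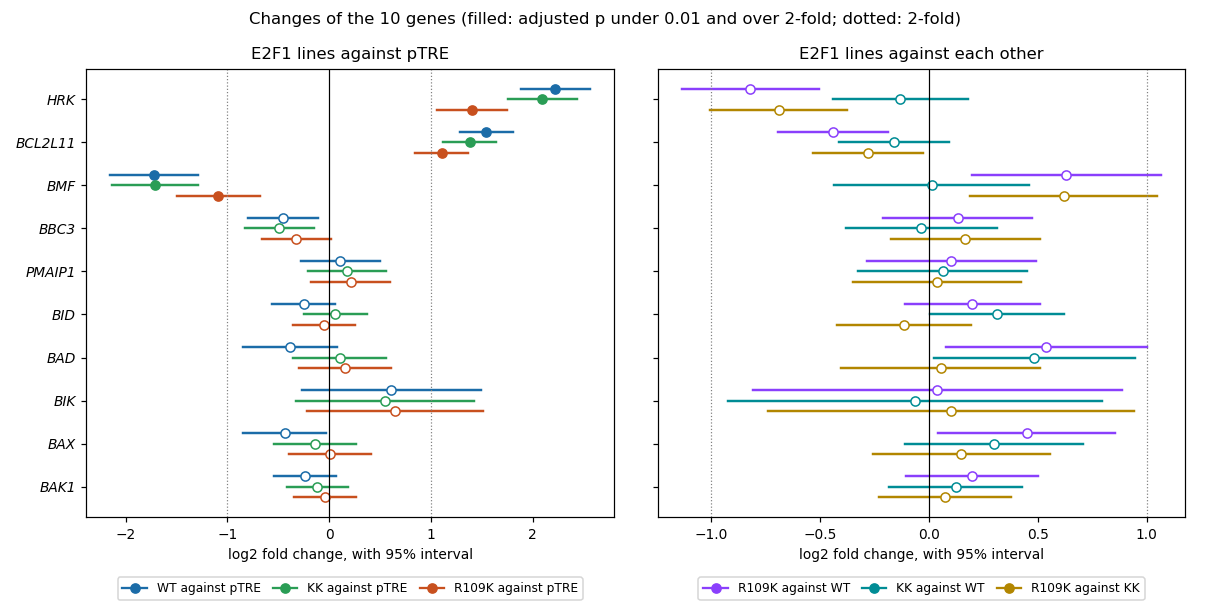
Log2 fold change (x axis) of the 10 genes (y axis) with 95% intervals from edgeR, in each E2F1 line against pTRE (left) and between E2F1 lines (right), with filled points for called genes and dotted lines at 2-fold. HRK, BCL2L11, and BMF are filled on the left in all 3 lines, no point is filled on the right, and HRK in R109K against WT lies at -0.82.

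The direct comparisons asked whether the changes in R109K and KK differed from those in WT. HRK showed the largest difference among the members in R109K against WT, at -0.82 on the log2 scale (SE 0.148, 95% interval -1.13 to -0.50, edgeR adjusted p = 0.00904), and the 3 R109K samples lay below the 3 WT samples. WT had 1.77 times the level of R109K, so this change was under the 2-fold limit and was not called. HRK was the 1 member past the adjusted p at any fold, as 0.71% of genes were. The adjusted p ran from 5.78e-05 with DESeq2 to 0.0549 without R109K replicate 3, apart from a test against 2-fold, which gave 1. Without the 3 libraries that stand apart the value was -0.74 (adjusted p = 0.0337). BCL2L11 was -0.44 in R109K against WT (95% interval -0.69 to -0.19, adjusted p = 0.0554), and BMF was 0.63 (0.20 to 1.07, adjusted p = 0.0968). Each thus lay between pTRE and WT in R109K, and neither difference passed the threshold over all genes.

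By edgeR 0 of the 10 members were called in R109K against WT, where 0.343% of genes were, and DESeq2 also called 0. At an unadjusted p under 0.05, 5 members differed, BCL2L11, HRK, BMF, BAD, and BAX, against 22.3% of genes. The same 5 were the members whose 3 samples did not overlap between these lines, against 27.1% of genes. BAD and BAX were higher in R109K, by 0.54 and 0.45 on the log2 scale, with adjusted p-values of 0.169 and 0.186. Without the 3 libraries that stand apart these were 0.20 and 0.12. E2F1 transcripts were also lower in R109K, with a log2 difference of -0.65 (adjusted p = 0.0577), at 1283, 1260, and 932 CPM against 2315, 1650, and 1469 CPM in WT. Its part in the differences of the members was not tested.

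In KK against WT 0 of the 10 members were called by edgeR, where 0.00602% of genes were, and 0 by DESeq2. At an unadjusted p under 0.05, 2 members differed, BID and BAD, against 8.51% of genes. The difference was -0.13 for HRK (95% interval -0.44 to 0.18), -0.16 for BCL2L11 (-0.41 to 0.09), and 0.01 for BMF (-0.44 to 0.46), on the log2 scale. A 2-fold difference between these lines lay outside the intervals of all 10 members, while smaller ones did not. BID was the 1 member whose samples did not overlap, against 9.97% of genes, with a difference of 0.31 that was 0.06 without the 3 libraries that stand apart.

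In R109K against KK 0 of the 10 members were called by edgeR, where 0.0902% of genes were, and 0 by DESeq2. At an unadjusted p under 0.05, 3 members differed, HRK, BCL2L11, and BMF, against 12.4% of genes, and the same 3 had no overlap between samples, against 21% of genes. HRK differed by -0.69 on the log2 scale (95% interval -1.003 to -0.38, edgeR adjusted p = 0.0355), BCL2L11 by -0.28 (adjusted p = 0.338), and BMF by 0.62 (adjusted p = 0.169). E2F1 transcripts overlapped between these lines, with a log2 difference of -0.18 (adjusted p = 0.773).

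Levels divided by exon length allow the members to be ranked within each line. In pTRE the order ran from BAX at 38.9 CPM per kb through PMAIP1 at 25.4, BAK1 at 15.6, BAD at 14.5, BID at 10.1, BBC3 at 5.44, BCL2L11 at 4.58, BMF at 1.46, and BIK at 0.854, to HRK at 0.364. In this order BAK1 and BAD overlapped, as did BBC3 and BCL2L11, and BIK and HRK. BAX had the highest mean in each line, but its samples overlapped with those of PMAIP1 in WT and KK. In WT BAX ran from 22.3 to 32.2 CPM per kb and PMAIP1 from 18.2 to 33.8. In WT BCL2L11 came to position 3, at 13.4 CPM per kb, and overlapped with BAK1 at 13.2. HRK came to position 8, at 1.71, above BIK at 1.31, and BMF came last, at 0.442. In KK BCL2L11 lay at position 5, at 11.95, and overlapped with BID at 10.5. In R109K BCL2L11 was at 9.85, overlapping with BID at 9.70, while HRK was at 0.966 and BMF at 0.686 without overlap. The exon lengths are those of the GENCODE annotation of GRCh37, all isoforms merged, from 0.951 kb for BIK to 6.85 kb for HRK. The annotation of the counting is not given and may differ, so the order and overlap of members with close values depend on these lengths.

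**Figure D3:**
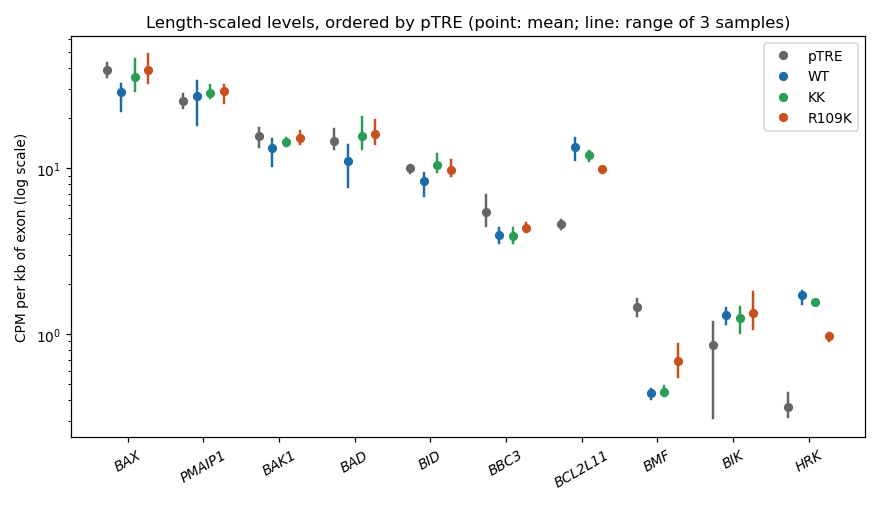
Level of each gene in CPM per kb of exon (y axis, log scale), in the order of pTRE (x axis), with a point for the mean and a line for the range of 3 samples of each line. BAX has the highest mean in all 4 lines, though its range overlaps with that of PMAIP1 in WT and KK. By mean, BCL2L11 moves from 4.58 in pTRE to 13.4 in WT, and BMF falls from 1.46 to 0.442.

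The members act within a wider network, for which 41 other genes were listed, of which 40 were tested. BCL2L10 did not pass the filter. Of these, 7 rose in WT against pTRE, 5 in KK, and 3 in R109K, where 7.89%, 7.01%, and 4.64% of all genes rose. Over the 40 genes the median log2 fold change was -0.11 in WT, 0.04 in KK, and 0.09 in R109K. It was above 0 for 18 of the 40 in WT, 24 in KK, and 26 in R109K. Over all 16625 genes it was above 0 for 8333, 8186, and 8300. All 10 genes of proteins that hold members inactive, such as the 14-3-3 and dynein light chain genes, stayed under the thresholds in each line. Of these, 1 in WT and 1 in KK passed the adjusted p alone, which 4362 and 4059 of all 16625 genes passed at any fold.

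Among the 5 anti-apoptotic genes tested, 2 rose in WT and KK and 1 in R109K, where 7.89%, 7.01%, and 4.64% of all genes rose. In each line 4 of the 5 had a log2 fold change above 0. BCL2L2 was lower, at a mean of 52.8 CPM in pTRE against 40.8, 35.2, and 35.2 CPM in WT, KK, and R109K. It was called in none. BCL2, the founding member, which holds BIM and other BH3-only proteins, was at 5.58, 7.30, and 4.30 CPM in pTRE and 44.9, 32.5, and 34.0 CPM in WT. It was at 39.7, 31.5, and 32.5 CPM in KK and 30.9, 24.8, and 23.0 CPM in R109K. Every sample of the E2F1 lines lay above the pTRE range, and the log2 fold changes were 2.70, 2.59, and 2.20 (edgeR adjusted p = 9.4e-08, 1.31e-07, and 1.25e-06). BCL2A1, an inhibitor that binds BIM and BID, rose by 3.84 in WT and 3.99 in KK (adjusted p = 3.41e-05 and 2.38e-05). These 2 values rest on a pTRE level of only 2 to 12 reads per sample. In R109K its log2 fold change was 1.97 (adjusted p = 0.0144). The direct difference of BCL2A1 between R109K and WT was -1.87 (adjusted p = 0.028), and that between R109K and KK was -2.03 (adjusted p = 0.0343), which did not pass at 0.01. DESeq2 gave -1.88 and -2.05 with adjusted p-values of 8.36e-04 and 3.95e-04, so that BCL2A1 was called by that tool.

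APAF1, the scaffold on which cytochrome c activates caspase-9, was the 1 gene called among 7 genes of released mitochondrial factors and the apoptosome. Its log2 fold change was 1.39 in WT and 1.01 in KK (edgeR adjusted p = 5.68e-05 and 8.57e-04), both called, and 0.80 in R109K (adjusted p = 0.00631), under 2-fold. In KK the call was lost without pTRE replicate 1, at 0.96, without KK replicate 1, at 0.89, and without KK replicate 3, at 0.90. BCL2L15, a BCL2-like gene, was called in WT alone, at 2.05 (adjusted p = 0.0059). WT replicate 2 held 2.81 CPM against 0.784 and 0.759 in the other WT samples, and without it the value was 1.24 (adjusted p = 0.0234). Leaving out pTRE replicate 1, 2, or 3 gave adjusted p-values of 0.0146, 0.0241, and 0.0298.

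Among the transcription factors known to act on BH3-only genes, TP73 and FOXO1 rose in all 3 lines. TP73, a known E2F1 target, had log2 fold changes of 2.505, 2.53, and 2.34 in WT, KK, and R109K (edgeR adjusted p = 1.34e-08, 1.35e-08, and 6.75e-08). FOXO1, whose family is known to act on BCL2L11, was at 7.81, 8.93, and 6.87 CPM in pTRE, 37.1, 42.6, and 25.8 CPM in WT, 32.5, 20.8, and 24.8 CPM in KK, and 20.9, 16.7, and 15.2 CPM in R109K. Its log2 fold changes were 2.15, 1.73, and 1.16 (adjusted p = 1.57e-06, 1.23e-05, and 6.18e-04). FOXO3 rose in WT at 1.03 (adjusted p = 2.81e-05), near the limit, and was under it without pTRE replicate 3, at 0.96, without WT replicate 1, at 0.996, and without WT replicate 2, at 0.91. In KK and R109K FOXO3 was at 0.62 and 0.34. In each comparison between E2F1 lines 0 of these 40 genes were called by edgeR. At an unadjusted p under 0.05, 9 differed in R109K against WT, 2 in KK against WT, and 5 in R109K against KK, where 22.3%, 8.51%, and 12.4% of all genes did. DESeq2 called 1, 0, and 1 of them, that gene being BCL2A1.

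**Figure D4:**
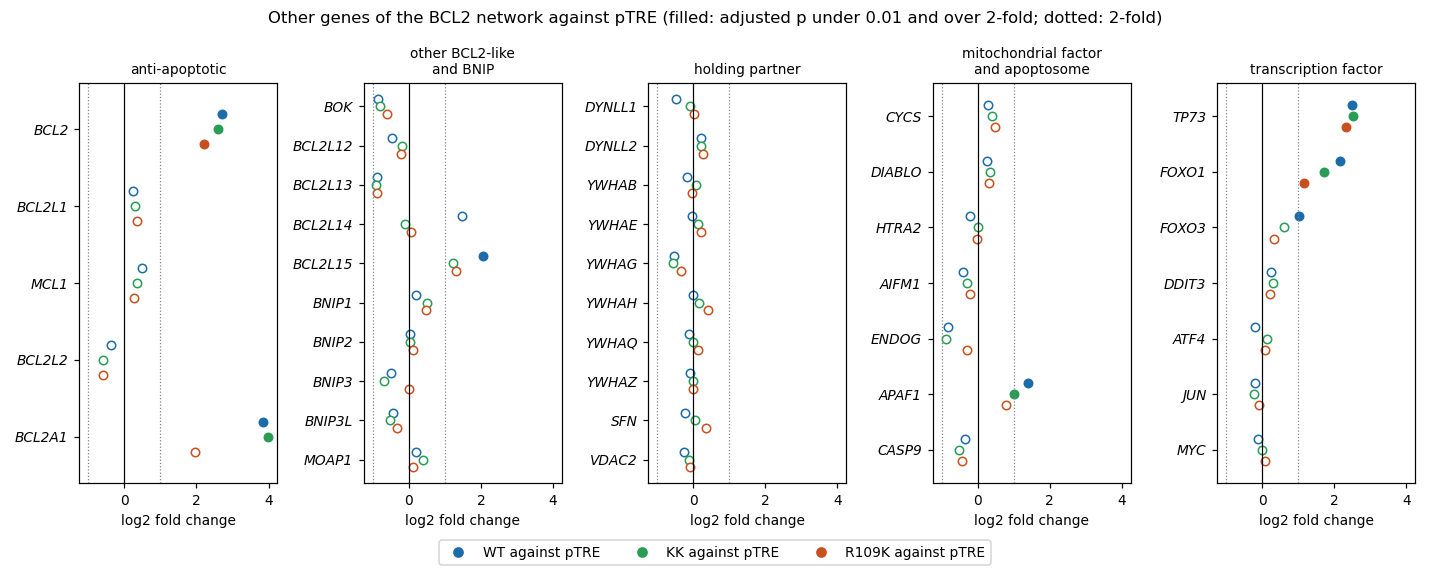
Log2 fold change against pTRE (x axis) of other genes of the BCL2 network that were tested (y axis), in 5 groups, with 1 point per E2F1 line, filled where called, and dotted lines at 2-fold. The filled points are BCL2, BCL2A1, BCL2L15, APAF1, TP73, FOXO1, and FOXO3, all to the right of the 2-fold line.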

How the data were processed

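Poly(A)-selected RNA was sequenced from directional libraries of 12 samples. Per the submitters' processing notes and the study's methods, the authors trimmed reads with Trim Galore 0.4.3, aligned them to hg19 with STAR 2.5.1, and tested lines with DESeq2 1.16.1. The authors deposited raw counts of reads per gene symbol, with 5 summary lines per sample that hold uncounted reads (34.3% to 68.8% of all). These lines were left out of library sizes and tests. The annotation and the strand setting of the counting are not given in the sources used here.

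The 12 samples were fitted together in edgeR 4.0.16 (R 4.3.3), by quasi-likelihood on TMM library sizes after filterByExpr, with 1 mean for every line and Benjamini-Hochberg adjustment over 16625 genes. The study's thresholds for a call were kept, namely 0.01 for the adjusted p and 2-fold for the change. The scripts were tested on simulated data. Intervals cover 95%. Alternatives were DESeq2 1.42.0, RLE normalization, other filters, the 6 samples of a comparison only, a replicate block, glmTreat, other thresholds, and each replicate left out. Leaving out 3 libraries together was chosen after seeing the data.

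Named genes are the 10 members, E2F1, the network genes called in any comparison, and the 5 genes most like HRK by Pearson correlation over the 12 samples, where the mean count reached 50. Genes that overlap members, markers, BCL2L2, and other list members that are named only with their list stand outside that rule. Members and lists were chosen with earlier results of these data known. Sequences are from RefSeq (GRCh38.p14), where BIK had no entry, and the GRCh37 genome with GENCODE genes. Protein sequences were not used here. The values of 1 network gene and of the blood markers are not reported here.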

Additional observations from a re-analysis of the deposited data

Results flagged for a closer look

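HRK stood further above pTRE in WT than in R109K, by a difference under 2-fold. Its log2 fold change against pTRE was 2.22 in WT and 1.40 in R109K, and the difference itself, R109K against WT, was -0.82 with an edgeR adjusted p of 0.00904. At 1.77-fold it was not called, and the adjusted p was 0.0549 without R109K replicate 3 and 0.0337 without the 3 libraries that stand apart. All 3 R109K samples lay below all 3 WT samples, at 6.25 to 6.97 CPM against 10.4 to 12.4 CPM. Over all genes 0.71% passed an adjusted p of 0.01 in this comparison at any fold.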

How the results depend on the processing

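The count of 3 members called in WT and in KK against pTRE was the same with DESeq2, RLE normalization, other filters, the replicate block, and each replicate left out, except that glmTreat against 2-fold gave 2 in KK. In R109K against pTRE the count was 0 with glmTreat and 2 to 3 with a replicate left out, and in R109K against WT it was 1 with no minimum fold. Of the network genes, DESeq2, no filter, and an adjusted p under 0.05 each called 1 in R109K against WT and 1 in R109K against KK, and leaving out a replicate gave 0 to 1 in R109K against WT. With glmTreat 4 were called in WT against pTRE, and with no minimum fold 12 in WT, 12 in KK, and 8 in R109K. With no minimum fold, 4362, 4059, and 2868 of all 16625 genes were called in these lines. The share of all genes is not given for the other settings.

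Same-numbered samples deviated with a mean correlation of 0.0436 over 18 pairs (-0.295 to 0.47), so the numbers were not taken to pair samples. A replicate block left 3, 3, and 3 members called against pTRE and 0 in the direct comparisons, turned BAX in R109K against pTRE to -0.00099 and BIK in R109K against WT to -0.0052, and took APAF1 in KK to 0.99.

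Directions that turned when a replicate was left out were those of small changes, with these ranges of log2 fold change. In R109K against pTRE they were BAX -0.17 to 0.12, BAK1 -0.14 to 0.040, and BID -0.17 to 0.0038. In WT against pTRE they were PMAIP1 -0.081 to 0.32. In KK against WT they were BBC3 -0.12 to 0.054, BMF -0.049 to 0.069, PMAIP1 -0.15 to 0.25, BAK1 -0.014 to 0.23, and BIK -0.19 to 0.075. In R109K against WT they were PMAIP1 -0.12 to 0.29 and BIK -0.23 to 0.17. In R109K against KK they were PMAIP1 -0.022 to 0.15, BIK -0.17 to 0.23, BAD -0.098 to 0.30, BAX -0.034 to 0.38, and BID -0.23 to 0.014. In KK against pTRE they were BID -0.065 to 0.13 and BAD -0.14 to 0.24.

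Leaving out WT, R109K, and KK replicate 2 together turned BID to -0.063 and BAD to -0.14 in KK against pTRE, BAX to -0.17 in R109K against pTRE, PMAIP1 to -0.17, BID to -0.042, BIK to -0.17 and BAK1 to -0.012 in R109K against WT, PMAIP1 to -0.096, BAX to -0.075 and BAK1 to -0.012 in KK against WT, and PMAIP1 to -0.077 and BIK to -0.16 in R109K against KK.

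Of the fold change values refitted with a replicate left out, 30 reversed and 11 lost a call, while 433 did neither. Of those refitted under the other settings, 14 reversed, 14 lost a call, and 595 did neither. The cause of these changes was not tested. Depth limits BIK, BCL2A1, and BCL2L15, with few reads per sample, and 3 replicates per line limit the direct comparisons.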

Other observations

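The genes whose levels over the 12 samples were most like those of HRK, among 13304 genes compared, were C3orf67 (Pearson r of log2 CPM 0.996), SKOR1 (0.995), SYT7 (0.994), C17orf103 (0.994), and ANO1 (0.993). SYT7 encodes a synaptotagmin, a calcium sensor of vesicle fusion, ANO1 a calcium-activated chloride channel, and SKOR1 a transcriptional corepressor. Their log2 fold changes in WT, KK, and R109K against pTRE were 2.52, 2.37, and 1.64 for C3orf67, 3.24, 2.96, and 1.91 for SKOR1, and 2.64, 2.48, and 1.81 for SYT7. C17orf103 had 2.36, 2.36, and 1.53, and ANO1 had 2.96, 2.88, and 1.99. As for HRK, each was lowest in R109K among the E2F1 lines on this scale, which follows from their being picked by likeness to HRK. A correlation over 0.9 with HRK was held by 974 genes, and the 12 points fall by line, so these values describe a shared difference between lines.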
